A study of Rattus norvegicus with 4 samples.

Results

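Fibroblast growth factors (FGFs) and their receptors were examined in rat hippocampal RNA after voluntary running. A list of 10 genes was taken, and a gene was measured where a noncontrol spot of the scanner files carried an accession that resolved to its symbol. This gave 8 genes (Fgf1, Fgf2, Fgf9, Fgf12, Fgf13, Fgf14, Fgfr1 and Fgfr3) of the 8899 genes that could be named on the chips. They were covered by 9 of 41012 probes and by 18 of the 43379 noncontrol spots of a chip. No probe resolved by accession to Fgfr2 or Fgfr4, which were therefore not analysed here.

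The secreted FGFs bind receptor tyrosine kinases at the cell surface, together with heparan sulfate proteoglycans, and the activated receptor signals through adaptor proteins to the RAS-MAPK, PI3K-AKT and phospholipase C gamma pathways. The FGF homologous factors (Fgf12, Fgf13, Fgf14) share the fold of the family but stay in the cell, where they bind the tails of voltage-gated sodium channels. In the hippocampus, FGF2 and FGFR1 are known for their part in the proliferation of neural progenitor cells.

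The animals were male Wistar rats, 10 weeks old at the start and housed singly for 4 weeks. The sedentary group (10 rats) lived in ordinary cages, the WR group (8 rats) had a running wheel without load, and the RWR group (8 rats) had a wheel whose resistance was raised stepwise to 30% of body weight. Hippocampal RNA was pooled within each group before labelling, from equal amounts of each replicate, and how many rats stood behind a replicate was not given in the sources used here. A pool may therefore hold RNA from fewer rats than its group. Chips 1 and 2 compared the WR pool with the sedentary pool, and chips 3 and 4 the RWR pool with the sedentary pool. The running pool was labelled with Cy5 on chips 1 and 3 and with Cy3 on chips 2 and 4.

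Both chips of a pair held the same pools, which leaves 1 biological replicate in each comparison and no way to test running against sedentary. Precision is limited by the number of chips. Values are log2 ratios of running over sedentary, given first for the chip with the running pool in Cy5 and then for the chip with it in Cy3, and each SD is that between both chips of a pair. Since the dyes were swapped within a pair, this SD includes the dye part of a ratio. A dye part alike on both chips drops out of their mean, so the SD is not the error of that mean. The error that the scanner software attached to a log2 ratio on a single chip lay between 0.20 and 0.22 at the brightest probe of each FGF gene other than Fgf1. A gene was called where its brightest probe passed 1.5-fold upward, or 0.75-fold downward, on each chip of a pair and the error-model p-value was under 0.01 on each.

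The labelled tissue was checked on marker genes. Both signals of all 4 chips passed the background flag at every marker with a probe for neurons (6 genes), hippocampal neurons (Neurod2, Wfs1 and Calb1), astrocytes (7 genes), oligodendrocytes (6 genes), microglia (7 genes) and blood (3 genes). The same held for 2 of 3 endothelial, 3 of 6 choroid plexus and 4 of 6 pituitary markers. Of all these markers, only Ttr, the transthyretin gene of the choroid plexus, in WR and Prl, the pituitary prolactin gene, in WR and RWR were past 0.75-fold downward on both chips of a pair, and none was past 1.5-fold upward. Prl was above background in 4 of its 8 signals. The log2 ratio of Ttr was −0.86 (SD 0.19) in WR and 0.12 (SD 0.11) in RWR, and that of Prl was −0.98 (SD 0.76) in WR and −1.20 (SD 0.38) in RWR. The list medians of the brain cell types lay between −0.070 for oligodendrocytes and 0.071 for hippocampal neurons in WR, and between −0.075 for oligodendrocytes and 0.11 for microglia in RWR. The endothelial, choroid plexus, pituitary and blood medians were 0.0054, −0.0098, −0.086 and 0.0014 in WR and −0.17, 0.087, 0.047 and −0.044 in RWR. Their part in the values of the FGF genes was not tested, and in whole-tissue RNA fewer cells of a type and less RNA per cell cannot be told apart. The pooled samples left no animal to be checked on its own.

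No FGF or FGF receptor gene was called in WR or in RWR. In the WR comparison 0 of 8 passed the fold and p-value limits, where 0.0674% of 8899 named genes did, and 0 of 8 passed the fold limits alone, where 0.494% did. In the RWR comparison 0 of 8 passed both limits, against 0.0674% of 8898 named genes, and 0 of 8 the fold limits alone, against 1.57%. The median log2 ratio of the 8 genes was −0.036 in WR and −0.062 in RWR, and over all named genes it was 0.0016 and −0.0047. The median size of the log2 ratio, without its sign, was 0.053 in WR and 0.062 in RWR, against 0.061 and 0.072 over all named genes. Among the genes with both signals well above background on all chips it was 0.054 in WR and 0.055 in RWR over 7 FGF genes, against 0.045 and 0.051 over 5927 named genes.

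The log2 ratio kept its side of 0 when the dyes were swapped for 4 of 8 genes in WR, where 23.8% of named genes did. Fgfr1 and Fgf13 were on the higher side and Fgf12 and Fgf14 on the lower side. In RWR it kept its side for 5 of 8 genes (Fgf1, Fgf9, Fgf12, Fgf13 and Fgfr1), where 28.2% of named genes did. These 5 were all on the lower side, on which 15.7% of named genes lay, and Fgf1 was among them although its running signals were not above background. Among the 7 genes with both signals well above background on all chips, the counts were 4 in WR and 4 in RWR, against 30% and 32.8% of the 5927 named genes detected in this way. With raw background left in, the counts over the 8 genes were 2 in WR and 3 in RWR. In that setting 985 of the 8899 named genes were higher and 1121 lower on both WR chips. On both RWR chips 1171 of them were higher and 1402 lower.

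**Figure D1:**
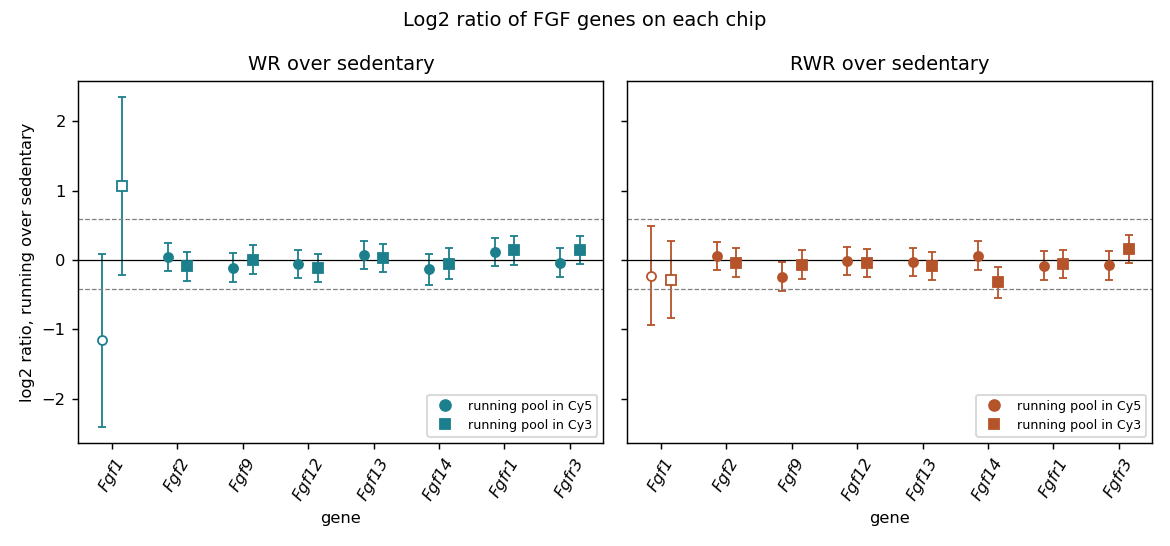
Log2 ratio of running over sedentary (y axis) for the 8 FGF genes on the WR chips (left) and the RWR chips (right), with circles for the running pool in Cy5, squares for the running pool in Cy3 and bars for the error-model error of the chip. Open symbols mark a probe that was not well above background in both dyes, and dashed lines mark 1.5-fold and 0.75-fold; every gene but Fgf1 lies between the dashed lines on all 4 chips.

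The turned ratios ran against each other within a pair of chips. Over all probes Pearson's r was −0.761 between chips 1 and 2 and −0.686 between chips 3 and 4, while it was 0.712 between chips 1 and 3 and 0.70 between chips 2 and 4, which had the dyes the same way round. These are correlations across probes that share a slide and sedentary RNA, given as a description. A ratio on a single chip therefore held a dye part, and the part is given for each FGF gene below by showing both chips.

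**Figure D2:**
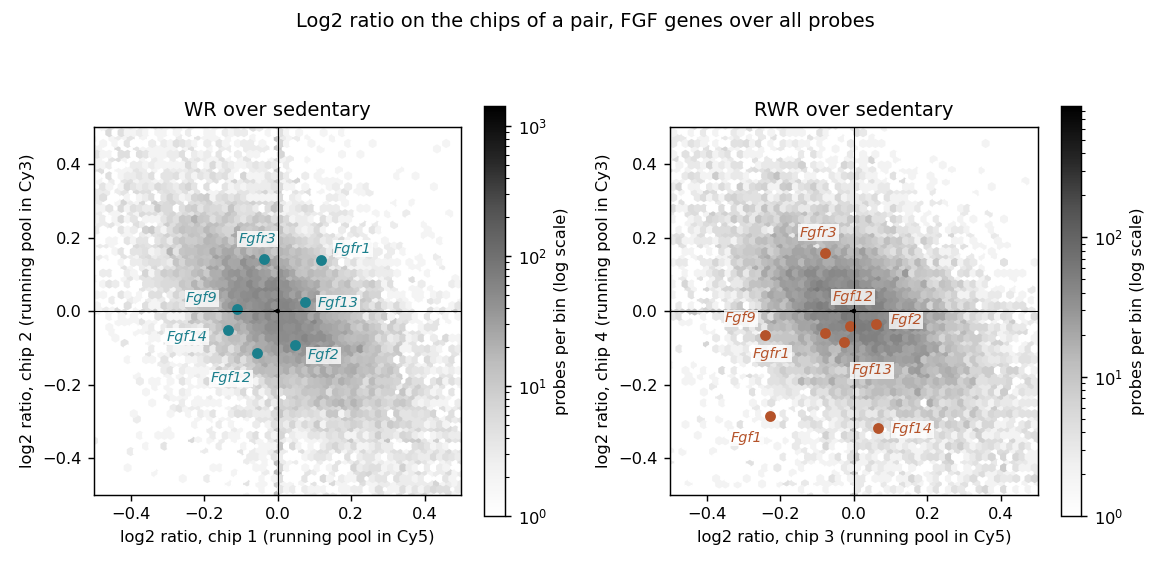
Log2 ratio of running over sedentary on the chip with the running pool in Cy5 (x axis) against the chip with it in Cy3 (y axis), for WR (left) and RWR (right). Grey shading counts all probes per bin on a log scale, coloured points are the FGF genes, and the cloud of probes slopes downward; Fgf1 in WR, at −1.16 and 1.06, lies outside the panel.

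Among the secreted ligands, Fgf2, which encodes basic FGF, was measured most often. Its brighter probe was spotted 10 times on each chip. The log2 ratio averaged over these spots was 0.046 and −0.092 in WR and 0.060 and −0.036 in RWR. In both comparisons it was above 0 with the running pool in Cy5 and below 0 with the running pool in Cy3. The mean of the pair was −0.023 (SD 0.097) in WR and 0.012 (SD 0.068) in RWR, which is 0.984-fold and 1.01-fold of sedentary.

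The single spots of Fgf2 showed how narrowly one hybridisation was measured. On chip 1 they ran from −0.016 to 0.13 (SD 0.041), with 9 above 0 and 1 below. On chip 2, where 1 spot was left out as an outlier, they ran from −0.16 to −0.027 (SD 0.040), with 0 above 0. On chip 3 all 10 were above 0, from 0.015 to 0.11 (SD 0.037), and on chip 4 there were 2 above and 8 below, from −0.11 to 0.023 (SD 0.044). Spots of a chip share their RNA and their labelling, so this spread leaves out the pools and the dyes. The spots of chip 1 and those of chip 2 did not overlap, although both chips held the same pools.

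**Figure D3:**
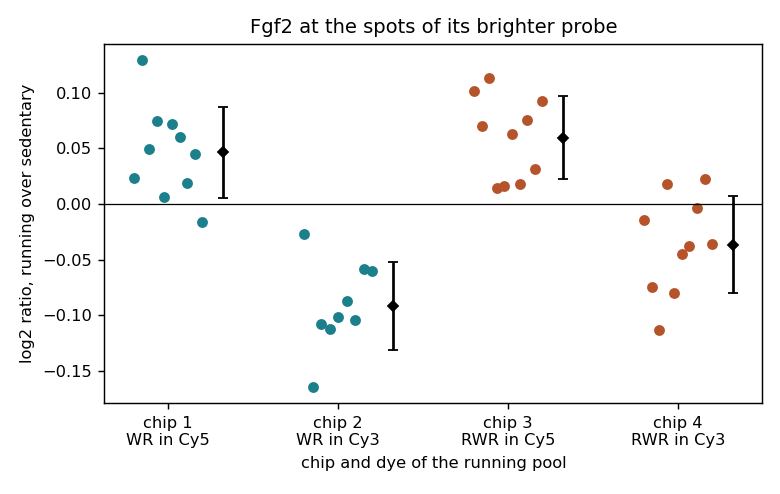
Log2 ratio of running over sedentary (y axis) at each spot of the brighter Fgf2 probe on the 4 chips (x axis), with the mean and SD of the spots in black. Spots lie mostly above 0 where the running pool was in Cy5 (chips 1 and 3) and mostly below 0 where it was in Cy3 (chips 2 and 4).

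The other probe of Fgf2 had 1 spot and a lower signal. In WR it gave log2 ratios of 0.43 and −1.05, and in RWR 0.38 and −0.58. The Cy5 signal was the higher one on each of the 4 chips, whichever pool carried Cy5. The mean of the pair was −0.31 (SD 1.04) in WR and −0.099 (SD 0.68) in RWR. On chip 2 its error-model p-value was 0.000161, and on the other chips it was between 0.0354 and 0.124. Both Fgf2 probes changed sign with the dye swap, the dimmer one by more.

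Fgf9 encodes a ligand known to be made by neurons and to act on glial cells. In WR its log2 ratio was −0.11 and 0.0043, with a mean of −0.054 (SD 0.082). In RWR it was −0.24 and −0.066, with a mean of −0.15 (SD 0.13) or 0.899-fold of sedentary. The RWR pool was thus the lower one on both chips, and the value of −0.24 on chip 3 was the only one of Fgf9 to exceed the error-model error of its chip. In Cy3 the normalized log2 signal of Fgf9 was 8.47 and 8.40 in the sedentary pool, 8.43 in the WR pool and 8.31 in the RWR pool. In Cy5 it was 8.43 and 8.37 in the sedentary pool, 8.35 in the WR pool and 8.15 in the RWR pool. RWR was the lowest pool in both dyes, and its signal did not overlap the sedentary signals in either dye.

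Fgf1 encodes acidic FGF, which can bind all FGF receptors. On chips 1 to 3 neither pool passed the background flag at its probe, and on chip 4 the sedentary pool alone passed. The processed signals of the running pool were 5.25, 7.05, 8.66 and 12.0 on chips 1 to 4, and those of the sedentary pool were 11.7, 3.37, 10.1 and 14.7. On chips 1 and 2 the order of both pools turned round with the dyes. The log2 ratios were −1.16 and 1.06 in WR (SD 1.57) and −0.23 and −0.29 in RWR (SD 0.042), beside error-model errors between 0.56 and 1.28. No fold is given for Fgf1, since neither running pool was measured above background.

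Of the FGF homologous factors, Fgf13, which also binds microtubules, had a log2 ratio of 0.073 and 0.026 in WR. The mean was 0.050 (SD 0.034), or 1.04-fold of sedentary. In RWR the ratio was −0.027 and −0.084, with a mean of −0.055 (SD 0.040) or 0.962-fold. Fgf13 was thus higher than sedentary on both WR chips and lower on both RWR chips, by less than the error-model error of 0.20 each time. In Cy3 its normalized log2 signal was 14.51 and 14.56 in the sedentary pool, 14.55 in the WR pool and 14.49 in the RWR pool. In Cy5 it was 14.52 and 14.57 in the sedentary pool, 14.59 in the WR pool and 14.53 in the RWR pool. WR exceeded RWR in both dyes, while 1 running pool in each dye lay within the range of the sedentary signals.

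Fgf12 had a log2 ratio of −0.056 and −0.12 in WR and of −0.0099 and −0.042 in RWR. The mean was −0.086 (SD 0.042), or 0.942-fold of sedentary, in WR and −0.026 (SD 0.022), or 0.982-fold, in RWR. All 4 chips were on the lower side, but the RWR mean became 0.0042 with a normexp background correction and 0.0025 with the background left in. The normalized log2 signal in Cy3 was 9.26 and 9.24 in the sedentary pool, 9.19 in the WR pool and 9.20 in the RWR pool. In Cy5 it was 9.31 and 9.25 in the sedentary pool, 9.20 in the WR pool and 9.23 in the RWR pool. Both running pools lay below both sedentary signals in either dye.

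Fgf14, a factor whose gene is mutated in a hereditary spinocerebellar ataxia, had processed signals from 80.3 to 127. Its log2 ratio was −0.13 and −0.052 in WR, with a mean of −0.093 (SD 0.059). In RWR it was 0.064 and −0.32, with a mean of −0.13 (SD 0.27). The WR ratios were both on the lower side, whereas the RWR ratios lay on opposite sides of 0, so the RWR mean was smaller than the spread between its chips. With normexp background correction the WR ratios were −0.079 and 0.12, with a mean of 0.023, and the RWR ratios −0.10 and −0.11. With the background left in, they were −0.13 and 0.085 in WR and −0.094 and −0.11 in RWR. In both of these settings it was the RWR ratios that kept their side of 0 and the WR ratios that did not. The RWR pool had the lowest normalized log2 signal in Cy3, at 6.32 against 6.85 and 6.79 in the sedentary pool, and the highest in Cy5, at 6.85 against 6.76 and 6.64.

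Fgfr1 encodes a receptor that is widely found on neurons and neural progenitor cells. Its log2 ratio was 0.12 and 0.14 in WR, with a mean of 0.13 (SD 0.014) or 1.09-fold of sedentary. In RWR it was −0.080 and −0.059, with a mean of −0.069 (SD 0.015) or 0.953-fold. Of the FGF genes, Fgfr1 had the smallest difference between both chips of a pair in each comparison, and its ratio was on the higher side in WR and on the lower side in RWR. Each of the 4 ratios was below the error-model error of its chip.

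The signals of Fgfr1 by pool gave the same order in both dyes. In Cy3 the normalized log2 signal was 8.95 and 8.97 in the sedentary pool, 9.11 in the WR pool and 8.95 in the RWR pool. In Cy5 it was 8.97 and 9.01 in the sedentary pool, 9.06 in the WR pool and 8.89 in the RWR pool. WR was above both sedentary signals in either dye, and RWR was below both in Cy5 and between them in Cy3. The RWR signal was lower than the WR signal by a log2 difference of −0.16 in Cy3 and −0.17 in Cy5, where the sedentary signals of a dye differed between chips by 0.027 and 0.039. This gap is a measure of the spread between chips only if the sedentary RNA on all 4 chips came from 1 pool, which was assumed.

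Fgfr3 encodes a receptor known from astrocytes. Its log2 ratio was −0.038 and 0.14 in WR, with a mean of 0.052 (SD 0.13), and −0.078 and 0.16 in RWR, with a mean of 0.040 (SD 0.17). It lay on opposite sides of 0 within each pair, below 0 with the running pool in Cy5 and above it with the running pool in Cy3. The normalized log2 signal in Cy3 was 9.07 and 8.89 in the sedentary pool, 8.98 in the WR pool and 8.87 in the RWR pool. In Cy5 it was 8.84 and 8.71 in the sedentary pool, 9.03 in the WR pool and 8.81 in the RWR pool. The sedentary signals alone differed between chips by 0.19 in Cy3 and 0.13 in Cy5, as much as or more than several of the differences between the pools.

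**Figure D4:**
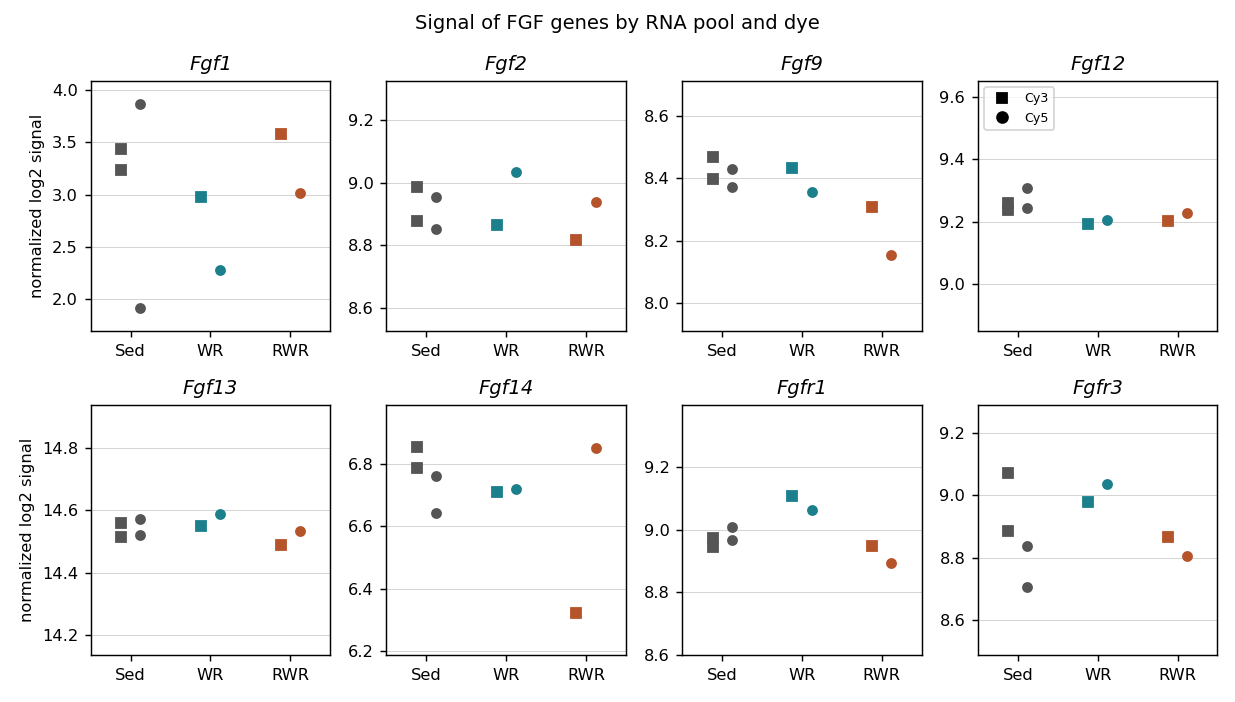
Normalized log2 signal (y axis) of the 8 FGF genes in the sedentary, WR and RWR pools (x axis), with squares for Cy3 and circles for Cy5. The panels of the genes other than Fgf1 span the same number of log2 units; WR lies above both sedentary values in either dye for Fgfr1, and both running pools lie below them for Fgf12.

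The levels set within a dye put these genes beside the background. The WR signal was outside both sedentary signals, on the same side in both dyes, for 2 of the 7 detected genes (Fgfr1 higher, Fgf12 lower), against 30% of 5927 named genes. The RWR signal was so for 2 of 7 (Fgf9 and Fgf12, both lower), against 31.9%. Both shares were near those of all detected genes.

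Set directly against WR, RWR had the lower signal in both dyes for 5 of 7 genes (Fgf2, Fgf9, Fgf13, Fgfr1 and Fgfr3), where 40.4% of named genes did, and the higher one for Fgf12. These signals are not set against the sedentary pool of their own chip. Set against it, the RWR ratio of Fgf2 was higher than its WR ratio, by 0.013 with the running pool in Cy5 and 0.055 with it in Cy3, and that of Fgfr3 differed by −0.041 and 0.017. The sedentary signals of Fgf2 and Fgfr3 were themselves lower on the RWR chips than on the WR chips, by 0.11 and 0.10 for Fgf2 and by 0.19 and 0.13 for Fgfr3 in Cy3 and Cy5. For 3 of 7 (Fgf9, Fgf13 and Fgfr1) the RWR signal was lower by more than the gap between the sedentary signals of that dye, against 15.8% of named genes. For Fgf9 the log2 difference was −0.13 in Cy3 and −0.20 in Cy5, with sedentary gaps of 0.070 and 0.055. For Fgf13 it was −0.061 and −0.054, with gaps of 0.046 and 0.049. Each pool gave 1 signal in a dye in this comparison, and its spread over rats is unknown.

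Fgfr1 and Fgf13 were the 2 genes that were higher on both WR chips and lower on both RWR chips, as were 2.2% of 8898 named genes. This direction was not set in advance. In either direction, 3.92% of named genes lay on opposite sides in WR and RWR, and 4.59% of the 5927 detected ones. For Fgfr1 the pattern held under all 5 other background corrections and scalings run, though the processed-signal ratio and median centring hardly changed its values. For Fgf13 it did not hold with normexp background correction, where the WR ratios were 0.089 and −0.013 and the RWR ratios 0.036 and −0.15, nor with the background left in, where they were 0.092 and −0.0016 and 0.024 and −0.14. Both comparisons were made against sedentary RNA, taken here to be a single pool on all 4 chips, which the sources used here do not state outright. The difference between the RWR and WR ratios was −0.20 for Fgfr1 with the running pool in either dye. For Fgf13 it was −0.10 with the running pool in Cy5 and −0.11 with it in Cy3.

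A further probe is named FGFR4 in the study, which lists it at 2.09-fold in RWR and counts FGFR4 among its newly identified factors. The accession of this probe is that of an expressed sequence tag that did not resolve to a gene symbol. The probe was therefore not counted among the FGF genes. Neither pool passed the background flag at this probe on any chip. Its processed signals in the running pool were 13.3, 2.70, 8.42 and 8.17 on chips 1 to 4, and in the sedentary pool 4.22, 3.57, 4.70 and 3.34. The running signal was the higher one on chips 1, 3 and 4 and the lower one on chip 2. On chips 3 and 4, the RWR pair, the ratio passed 1.5-fold, with error-model p-values of 0.404 and 0.284. The lowest signal flagged as well above background on the 4 chips was between 9.43 and 21.3, depending on chip and dye. No fold is given here beyond the one listed in the study.

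The wider pathway was followed in 75 listed genes in 5 groups, of which 54 had a probe and 39 had both signals well above background on all chips. Of these 54, 0 were called and 0 were past the fold limits on both chips, in WR as in RWR. In WR, 16 of 54 were higher and 4 lower on both chips, where 12.2% and 11.6% of all named genes were. In RWR 10 of 54 were higher and 9 lower, where 12.5% and 15.7% of all named genes were. The same shares stand behind the counts of the groups below, except where shares of detected genes are given. The median log2 ratio of the 54 genes was 0.055 in WR and 0.019 in RWR. Genes among the 3 brightest of each group are given below.

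Of 15 other ligands, 14 had a probe and only Fgf5 and Fgf18 were well above background throughout. Fgf18 had a log2 ratio of −0.19 and −0.11 in WR and of −0.015 and 0.053 in RWR. Fgf5, which takes part in the hair growth cycle, had −0.31 and 0.056 in WR and −0.11 and 0.49 in RWR. Fgf22, a ligand known as a presynaptic organizer, was above background in 7 of 8 signals and had 1.08 and −0.71 in WR and 0.38 and −0.45 in RWR. Its sign followed the dye. Fgf7, singled out after its values were seen and above background in 5 of 8 signals, had −0.87 and 1.84 in WR and −1.59 and 1.85 in RWR, so that it was past a fold limit on every chip but in opposite directions within a pair. On both chips of a pair 2 of the 14 ligands were higher and 1 lower in WR, and 0 were higher and 2 lower in RWR.

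The co-receptors and binding proteins hold FGFs at the cell surface, and 9 of the 11 with a probe were well above background throughout. Gpc1, which encodes the heparan sulfate proteoglycan glypican-1, had a log2 ratio of 0.048 and 0.14 in WR and of 0.039 and 0.11 in RWR. Fgfrl1, a receptor-like protein without a kinase domain, had 0.11 and 0.028 in WR and 0.088 and 0.044 in RWR. Sdc2, which encodes the proteoglycan syndecan-2, had 0.037 and 0.010 in WR and 0.066 and 0.023 in RWR. These 3 were on the higher side on all 4 chips. Over the 11 genes, 3 were higher and 1 lower in WR, and 4 were higher and 1 lower in RWR, on both chips.

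All 12 adaptors and effectors with a probe were well above background throughout. Map2k1, the kinase that activates ERK, had a log2 ratio of 0.080 and 0.064 in WR and of −0.015 and 0.015 in RWR. Ptpn11, the phosphatase SHP2, had 0.10 and −0.091 in WR and 0.17 and −0.062 in RWR. Over the 12 genes, 4 were higher and 0 lower in WR, and 1 was higher and 5 lower in RWR, on both chips. Of the 5927 named genes so detected, 14.7% were higher and 15.3% lower in WR, and 15.8% higher and 17% lower in RWR. The median of the 12 genes was 0.017 in WR and −0.0019 in RWR.

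Feedback inhibitors and target genes of the pathway had 8 probes, with 7 well above background throughout. Dusp6, a phosphatase that switches off ERK and is induced by FGF signals, had a log2 ratio of −0.056 and 0.27 in WR and of −0.014 and 0.20 in RWR. Egr1, an immediate early transcription factor, had 0.20 and −0.036 in WR and 0.26 and −0.00064 in RWR. Ccnd1, which encodes cyclin D1, had 0.21 and −0.14 in WR and 0.16 and −0.13 in RWR. None of these 3 kept its side of 0 in either pair. Over the 8 genes, 1 was higher and 2 lower in WR, and 1 was higher and 0 lower in RWR, on both chips.

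The voltage-gated sodium channel subunits and ankyrin G, to which the FGF homologous factors bind or lie near at the axon initial segment, had a probe for 9 of 9 genes, all well above background throughout. In WR 6 of 9 were higher and 0 lower on both chips, where 14.7% of the 5927 named genes so detected were higher. In RWR 4 were higher and 1, Ank3, was lower, where 15.8% of these named genes were higher and 17% lower. In WR the median over the 9 genes was 0.067, and in RWR 0.043. Under other background corrections and centrings the higher count ran from 4 to 6 in WR and from 3 to 4 in RWR, and the median stayed above 0.

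Scn3b and Scn2a encode a beta and an alpha subunit of the sodium channel and were among the 3 brightest of these genes. Scn3b had a log2 ratio of 0.29 and 0.11 in WR and of 0.23 and 0.022 in RWR. Scn2a had 0.019 and 0.089 in WR and 0.067 and 0.11 in RWR. Both were on the higher side on all 4 chips. Fgf12 and Fgf14 were on the lower side on both WR chips and Fgf13 on the higher side, as given above.

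**Figure D5:**
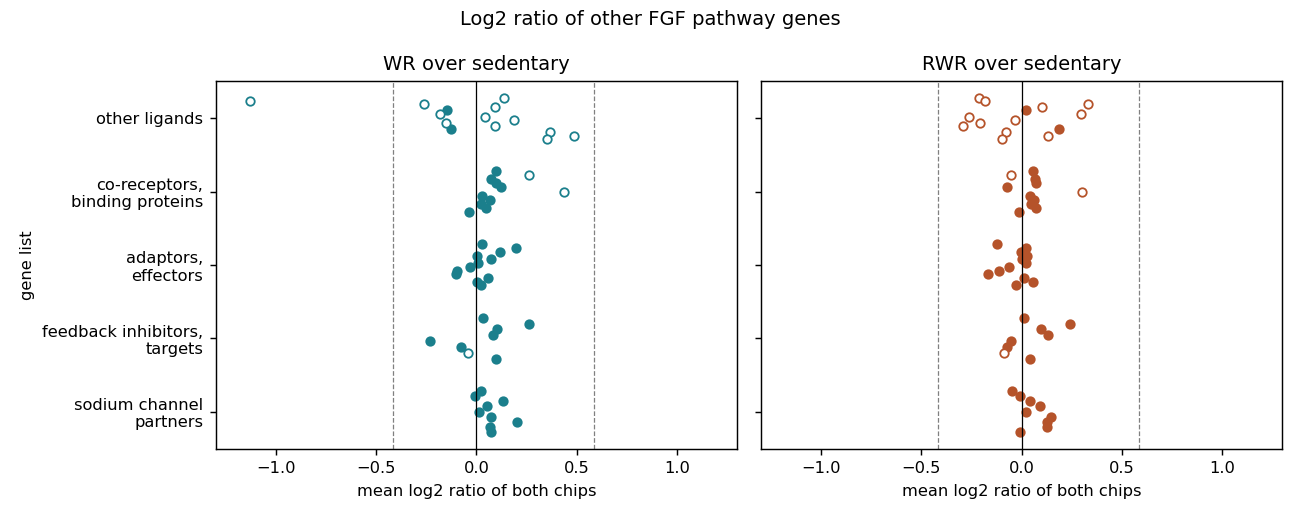
Mean log2 ratio of both chips (x axis) for each gene of the 5 FGF pathway groups (y axis) in WR (left) and RWR (right). Filled points had both signals well above background on all chips, open points were not, and dashed lines mark 1.5-fold and 0.75-fold; every filled point lies between the dashed lines.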

How the data were processed

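Rat hippocampal RNA pools were measured on 4 two-colour chips of an Agilent whole-genome oligo array designed on the rn4 build. Per the submitters' processing notes the scans were processed by the authors with Agilent Feature Extraction 11.0.1.1. The authors deposited, for both dyes of every spot, an intensity that the software had corrected for background and scaled between dyes by LOWESS. They also deposited a log10 ratio (Cy5 to Cy3), which reads 0 at the 1384 to 2825 noncontrol spots per chip where no ratio could be measured, with its error, a score on the log10 scale, and a p-value, both from the error model of a single chip. The authors' series matrix repeats the log10 ratio from the processed intensities.

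Each dye's label gave the group. After removal of spots flagged as outliers (118 to 140 per chip), the log2 of running over sedentary was taken and averaged over the spots of a probe. Accessions were looked up in a RefSeq table of GRCr8, from which only gene names were taken, and gave 8899 genes on 10768 probes. A gene was represented by its brightest probe. Signals by pool were normalized by Aquantile in limma 3.58.1 under R 4.3.3 and compared within a dye only. The median processed signal was 62.2 to 74.6 in Cy3 and 66.4 to 78.3 in Cy5, and 67.5% to 82.5% of spots were well above background. No spot was saturated.

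The FGF genes and the pathway and marker lists were chosen with earlier results of these data known. Named were all 10 listed genes with every probe that resolved to them, the 3 brightest genes of each pathway group, every pathway gene past the fold limits on both chips, and the marker genes past those limits or that define the tissue. Values of some of the brightest pathway genes are not reported here. No measure of likeness between genes was computed, since 3 pools give too few points.

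The alternatives were normexp background correction with an offset of 50 and loess, no background correction with loess, the log ratio of the processed signals, median centring, subtraction of running medians over 20 signal levels, the median over the probes of a gene, filters on dim probes, other call rules and each chip left out. Background alternatives started from the median pixel signal of a spot. The code of the call rule was run on simulated data in which the p-values were set from the size of the ratio. That run does not show how the rule performs on these chips. Coordinates and probe sequences were not used here. Python 3.11.15 with numpy 2.4.6, pandas 2.3.3 and matplotlib 3.10.9 was used.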

Additional observations from a re-analysis of the deposited data

Results flagged for a closer look

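Fgfr1 lay on the higher side of the sedentary pool on both WR chips and on the lower side on both RWR chips, and the RWR minus WR difference of its log2 ratio was −0.20. The same pattern was found for Fgf13, with a difference of −0.11, and for Ank3, the ankyrin G gene among the sodium channel partners, with a difference of −0.068. It was found for 2.2% of 8898 named genes. In either direction, 4.59% of the 5927 detected genes lay on opposite sides in WR and RWR. Among the marker genes, Map2, Csf1r, Pecam1 and Kcnj13 had the pattern. The neuron marker Map2 had log2 ratios of 0.051 and 0.021 in WR and of −0.090 and −0.12 in RWR. The differences were not tested, because each condition had 1 RNA pool. For Fgfr1 and Fgf13 the differences were smaller than the error-model error of a ratio on a single chip. The pattern of Fgfr1 held under all 5 other background corrections and scalings run, of which the processed-signal ratio and median centring hardly changed its values. With normexp background correction and with the background left in, both chips of a pair lay on opposite sides of 0 for Fgf13 and Ank3, in WR and in RWR.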

How the results depend on the processing

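The count of FGF genes called was 0 in WR and in RWR under every alternative run, including each chip left out. By the main rule 0.0674% of named genes were called in each comparison, so 0 of 8 says little. With a chip left out the count rests on the brightest probe of a gene. The dimmer Fgf2 probe passed both limits on chip 2 alone, at −1.05 with an error-model p-value of 0.000161. No paired analysis was possible because the chips of a pair are dye swaps of the same pools and no test was made. The median log2 ratio of the FGF genes in WR was 0.016 after normexp background correction, with the sign turned from −0.036, and −0.047 to 0.015 with 1 chip left out. In RWR it was −0.050 without background correction, −0.041 after subtraction of the median at each signal level, −0.055 under either filter on dim probes, which left out Fgf1, and −0.062 to −0.053 with 1 chip left out. Without background correction 2 genes kept their side of 0 in WR and 3 in RWR, and the counts over all named genes are given above. Of the 54 other FGF pathway genes with a probe, 1 passed the fold limits on the mean of the WR pair without a p-value. By that rule 5.85% of 8899 named genes passed in WR. The pathway gene was Fgf11, whose ratio was listed at 0 on chip 1. With 1 chip left out, 2 pathway genes were called in WR (Fgf7 with Fgf22 or with Fgf11) and 1 to 2 in RWR (Fgf7 alone or with Fgf10), by a rule that then had a single chip to pass. The share of all named genes called on a single chip is not given here. The pathway counts, and the 0 of the FGF genes, therefore cannot be set against it. The count of genes on the same side of 0 needs both chips and was not run with 1 left out. Of 124 values of single FGF genes under the other alternatives, 114 moved by less than the SD between chips, 10 by more, and 6 had another sign. Many of the 114 could not move, so their number is no measure of robustness. The log ratio of processed signals repeated the main ratio, and both filters on dim probes kept the same brightest probes. The median over probes could change Fgf2 alone, and median centring left the WR values as they were. The cause of the shifts was not tested. Depth is limited by signal over background, which left Fgf1 unmeasured, and by 1 pool per group.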
